A study of Mus musculus with 12 samples.

Results

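The genes described here are 32 genes linked to the response to low oxygen, followed in mouse natural killer (NK) cells before and after stimulation through the activating receptor NK1.1. They are the rows of the deposited expression table whose symbol is on the list, 32 of 55487 features, and all 32 were among the 12364 genes with log2 CPM (reads scaled to library size) above 0 in at least 4 samples. The list was built around Ankrd37, Bnip3, Egln3 and Slc16a3, which were picked because they were among the largest falls after stimulation. Differences from unstimulated cells are therefore given for the members as a description, without a test. The comparison of the 2 stimulated groups with each other was tested for the other 28 members.

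The study holds 12 RNA sequencing samples, 4 in each of 3 groups. The labels give NK cells of strain B6.129S4-Ifngtm3.1Lky/J with genotype mut/mut and "HD IL-15" for all 12 samples, so the reporter genotype and the IL-15 are shared by the controls. That strain reports transcription of Ifng, the gene for interferon gamma, through yellow fluorescent protein (YFP). Cells of the first group were unstimulated and carry no time in the labels. Cells of both other groups received anti-NK1.1, an antibody to the receptor, for 6 hours and differ in the reporter: YFP- cells lacked the signal and YFP+ cells had it. Each group holds the replicate labels f2, m2, m3 and m4, and values below follow that order. The labels do not say whether samples came from separate animals, so p-values measure only the spread between these samples, which may be technical. The series title names the comparison of IFNg+ and IFNg- cells after IL-15 priming.

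Cells sense oxygen through hypoxia-inducible factors (HIFs), made of a labile alpha subunit and the stable partner ARNT. When oxygen is present, prolyl hydroxylases of the EGLN family mark the alpha subunit, VHL binds the mark, and the subunit is degraded. When oxygen is scarce, or when growth and cytokine signals raise its synthesis, the alpha subunit accumulates and the dimer binds hypoxia response elements of genes for glycolysis, lactate export, mitophagy and blood vessel growth. Lymphocytes primed by cytokines use HIF-1 in this way at ordinary oxygen levels as well. The read-out here is transcript abundance, and HIF protein was not measured.

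The promoters of 8 members are printed because their transcripts carry the main patterns below. They are RefSeq promoter sequences on GRCm38.p6, written on the strand of the gene, 5′ to 3′, and cut to the bases before the start that overlap no annotated exon. Those of Ankrd37 and Slc16a3 lie within the gene spans given below, before a start inside the annotated gene. Capitals mark the core of the hypoxia response element, ACGTG or GCGTG on either strand (CACGT or CACGC on the other). Ankrd37, Bnip3, Egln3 and Slc16a3 are the genes the list was built around, Narf and Ak4 were lower at both steps, Rora was lower in YFP+ cells and Vegfa was the member called higher in them. The stretches are Ankrd37 chr8:45999868-46000100 (minus), Bnip3 chr7:138909520-138909756 (minus), Egln3 chr12:54203875-54204124 (minus), Slc16a3 chr11:120948817-120949052 (plus), Narf chr11:121236986-121237235 (plus), Ak4 chr4:101419039-101419276 (plus), Rora chr9:68653536-68653785 (plus) and Vegfa chr17:46032378-46032627 (minus).
Ankrd37: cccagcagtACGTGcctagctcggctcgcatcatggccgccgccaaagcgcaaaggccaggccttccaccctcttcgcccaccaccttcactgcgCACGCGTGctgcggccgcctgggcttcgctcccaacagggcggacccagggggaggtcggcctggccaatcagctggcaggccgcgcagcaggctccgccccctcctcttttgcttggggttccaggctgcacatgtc
Bnip3: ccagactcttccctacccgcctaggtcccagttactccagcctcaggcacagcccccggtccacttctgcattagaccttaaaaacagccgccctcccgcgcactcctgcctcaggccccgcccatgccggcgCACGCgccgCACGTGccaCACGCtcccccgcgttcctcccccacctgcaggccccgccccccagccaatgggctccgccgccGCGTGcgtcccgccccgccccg
Egln3: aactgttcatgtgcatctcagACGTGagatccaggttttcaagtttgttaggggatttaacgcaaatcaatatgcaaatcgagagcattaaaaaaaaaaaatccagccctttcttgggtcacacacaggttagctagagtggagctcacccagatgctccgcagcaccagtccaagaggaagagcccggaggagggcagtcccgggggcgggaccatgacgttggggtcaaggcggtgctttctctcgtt
Slc16a3: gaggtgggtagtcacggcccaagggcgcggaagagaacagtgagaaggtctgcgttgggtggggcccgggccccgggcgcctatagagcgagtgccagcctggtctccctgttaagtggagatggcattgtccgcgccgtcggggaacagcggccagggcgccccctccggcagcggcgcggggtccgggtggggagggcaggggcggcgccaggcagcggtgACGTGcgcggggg
Narf: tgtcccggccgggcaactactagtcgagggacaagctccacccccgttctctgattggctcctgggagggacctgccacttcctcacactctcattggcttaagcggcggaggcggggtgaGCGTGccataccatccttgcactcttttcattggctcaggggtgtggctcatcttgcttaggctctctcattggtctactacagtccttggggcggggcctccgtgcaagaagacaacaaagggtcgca
Ak4: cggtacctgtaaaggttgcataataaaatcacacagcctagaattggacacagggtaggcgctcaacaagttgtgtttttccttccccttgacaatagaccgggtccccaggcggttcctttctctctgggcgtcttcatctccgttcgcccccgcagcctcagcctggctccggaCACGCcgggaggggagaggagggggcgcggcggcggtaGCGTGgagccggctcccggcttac
Rora: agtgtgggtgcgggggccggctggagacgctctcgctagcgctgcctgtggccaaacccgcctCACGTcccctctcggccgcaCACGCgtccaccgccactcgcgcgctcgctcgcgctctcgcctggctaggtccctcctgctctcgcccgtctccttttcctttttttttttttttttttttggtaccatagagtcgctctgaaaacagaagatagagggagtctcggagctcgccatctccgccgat
Vegfa: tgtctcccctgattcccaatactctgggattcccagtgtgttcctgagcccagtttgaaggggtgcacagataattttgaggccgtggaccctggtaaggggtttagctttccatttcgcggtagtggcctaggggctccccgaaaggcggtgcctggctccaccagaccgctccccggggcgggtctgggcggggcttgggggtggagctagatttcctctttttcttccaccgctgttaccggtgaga

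Bnip3 has 5 cores in the printed stretch, 2 of them overlapping in a CACGTG palindrome, and Ankrd37 has 3. Ak4 and Rora have 2 each, and Egln3, Slc16a3 and Narf have 1. The Vegfa stretch has 0, which says only that these letters are not in this window, and the window of a second listed Vegfa start has 2. RefSeq promoter windows of 300 bases, 250 before and 50 after the start, were found for 27 of the 32 members. At least 1 listed window held a core in 25 of those 27 (92.6%), against 5993 of 8704 tested genes with a window (68.9%). The palindrome CACGTG, a motif of other basic helix-loop-helix factors that contains ACGTG, was in 5 of 27 members (18.5%) and in 12.1% of tested genes. A match is a stretch of letters and no measure of binding. The members were listed as genes linked to the response to low oxygen, so nothing is read from their larger share with a core. The core holds a CG pair, and windows were not matched for their number of CG pairs.

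Libraries held 32.1 to 54.2 M reads, so that 3 reads correspond to 0.0553 to 0.0933 CPM. Reads on ribosomal RNA and 3 similar features took 27.4% to 35.3% of unstimulated libraries, 15.9% to 30.3% of YFP- libraries and 13.7% to 29.8% of YFP+ libraries. Their part in the differences below was tested only by leaving them out of the totals. Over the 12 samples together, all 10 NK cell markers averaged above 5 CPM. Klrb1c, the gene for NK1.1 itself, was 290.2 to 327 CPM in unstimulated, 57.6 to 86.6 CPM in YFP- and 3.70 to 8.97 CPM in YFP+ samples. Ncr1, Klrd1, Eomes and Cd7 were also lower in every YFP+ than in every unstimulated sample. Klrk1, Tbx21 and Gzmb were higher by the same rule, and Prf1 and Il2rb overlapped. Of 7 T cell markers, Cd3d, Cd3g and Trac averaged above 5 CPM, with a summed list level of 52.6 to 113 CPM unstimulated, 67.3 to 93.7 CPM in YFP- and 63.6 to 95 CPM in YFP+ cells, while the remaining 4 stayed at or below 1.49 CPM. Within that sum Trac was higher after stimulation, at 6.83 to 8.47, 27.6 to 41.9 and 40.4 to 54.5 CPM in the same order. Cd3g was 30.9 to 79.4, 24.4 to 41.7 and 11.7 to 31.9 CPM, and Cd3d 14.2 to 25.9, 12.8 to 20.6 and 7.25 to 13.8 CPM. Of 6 macrophage and monocyte markers only Cd68 averaged above 5 CPM. Their summed level was 52.9 to 60.2, 27.3 to 44.4 and 14.7 to 24.0 CPM in the same order, and Adgre1 had at most 3 reads in any library. B cell, neutrophil and erythroid lists summed to at most 4.19, 1.76 and 0.326 CPM. The part of other cells in the results was not tested. In bulk RNA, fewer cells of a type and less RNA per cell cannot be told apart.

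Most of the 32 genes were lower after stimulation, and a subset was lower still in the cells with the reporter signal. In YFP- cells, all 4 samples lay below all 4 unstimulated samples for 19 members, and all lay above for 1. By the same rule 21.7% of all tested genes were lower and 30.9% higher, and limma called 51.1% of genes in either direction. In YFP+ cells 24 members were lower and 1 higher than in every unstimulated sample, with 30.8% and 24.0% of all tested genes, and limma called 60.8%. Ak4 and Car9, both among the 19 and the 24, reached log2 CPM above 0 in at least 4 samples only through their unstimulated samples. For these genes that filter favoured a fall. The median member difference was -0.85 in log2 CPM for YFP- and -1.25 for YFP+ cells, beside 0.14 and -0.03 for all tested genes. Nothing is read from these shares, because the list was built on these falls and both comparisons use the same unstimulated samples.

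**Figure D1:**
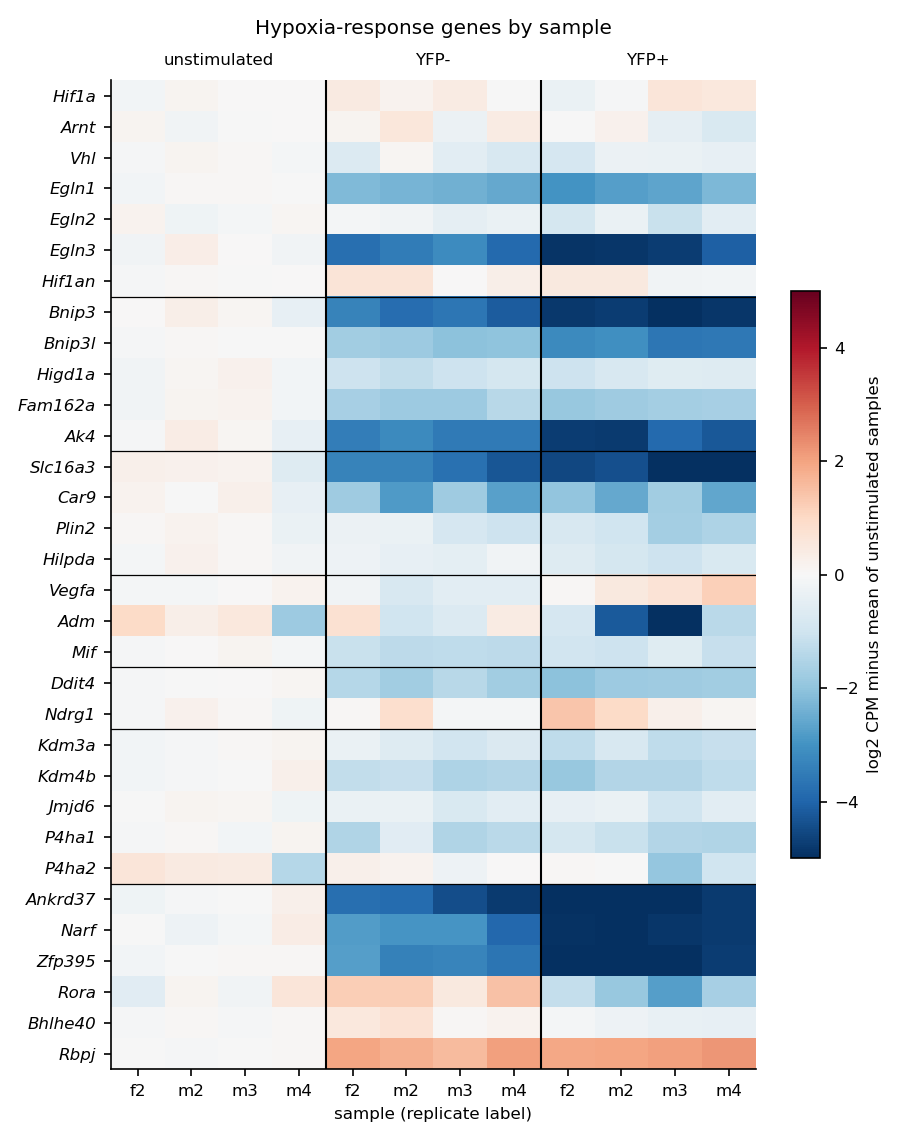
Deposited log2 CPM of each of the 32 genes (rows, grouped by role) in each of the 12 samples (columns, by group and replicate label), minus the mean of the 4 unstimulated samples, with colours capped at 5 in either direction. Blue rows such as Ankrd37, Bnip3 and Zfp395 deepen from YFP- to YFP+, Rbpj is red in all 8 stimulated samples, and Rora is red in YFP- and blue in YFP+ samples.

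Ankrd37 (chr8:45996902-46005707, minus strand), an ankyrin-repeat protein encoded by a direct HIF-1 target, was detected at 42.0, 46.8, 47.1 and 57.7 CPM in the unstimulated samples f2, m2, m3 and m4. It was 3.52, 3.36, 2.21 and 1.75 CPM in YFP- and 0.961, 1.12, 1.44 and 1.74 CPM in YFP+ samples. The 3 groups did not overlap, although the lowest YFP- and the highest YFP+ sample, both labelled m4, were nearly level. The difference from unstimulated cells was -4.20 in log2 (SE 0.25), or 18.4-fold lower, in YFP- and -5.21 (SE 0.25), or 37.1-fold lower, in YFP+ cells, the lowest of the 32 in both.

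Bnip3 (chr7:138890836-138909519, minus strand) encodes a receptor on the outer mitochondrial membrane that recruits the autophagy machinery. Its level was 154, 185, 158 and 112 CPM unstimulated, 14.6, 10.7, 12.2 and 8.40 CPM in YFP- and 5.23, 5.60, 3.01 and 5.20 CPM in YFP+ samples. No group overlapped another, and the YFP+ sample m3 stood below the other 3 of its group. YFP- cells were 13.3-fold lower (-3.73 in log2, SE 0.23) and YFP+ cells 32.3-fold lower (-5.01, SE 0.23) than unstimulated cells.

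Slc16a3 (chr11:120948480-120960868, plus strand) encodes MCT4, the monocarboxylate transporter through which glycolytic cells export lactate. Unstimulated samples held 383, 382, 362 and 210.4 CPM, YFP- samples 32.1, 32.3, 24.7 and 16.6 CPM and YFP+ samples 13.9, 15.6, 5.44 and 6.60 CPM. The unstimulated sample m4 was well below the other 3 of its group yet far above every stimulated sample, and the YFP+ samples m3 and m4 were below f2 and m2. The differences from unstimulated cells were -3.67 (SE 0.34) for YFP- and -5.11 (SE 0.34) for YFP+ cells in log2, the widest errors among the 4 genes of the rule.

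**Figure D2:**
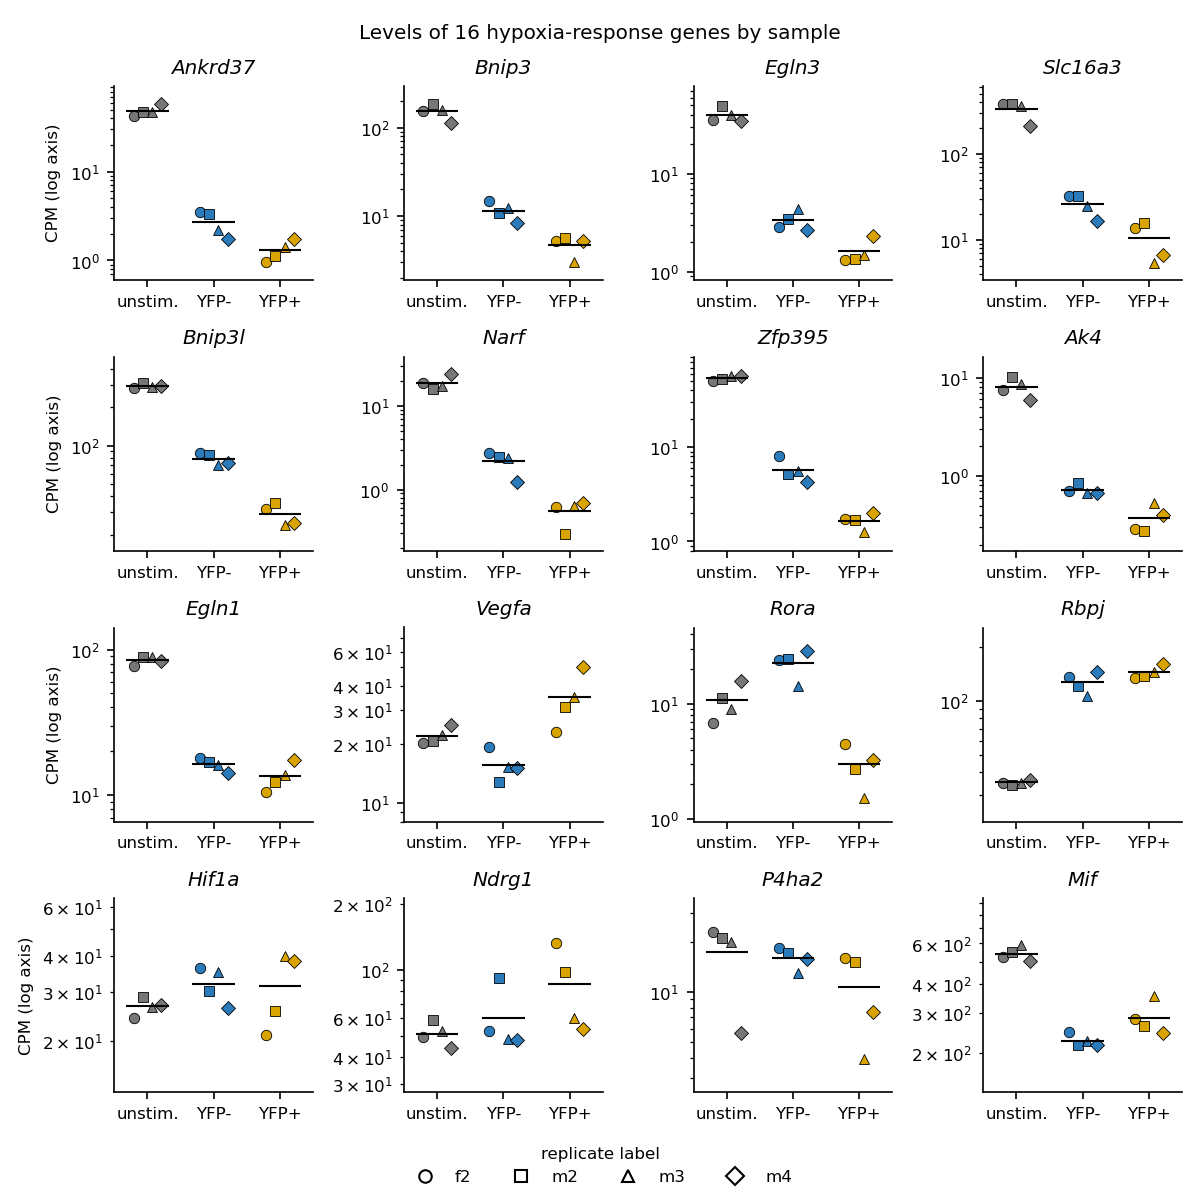
Level in CPM (log axis) of 16 of the 32 genes in every sample, with symbols for the replicate label and a line at each group mean. The top row holds the 4 genes of the rule, Vegfa is highest and Rora lowest in YFP+ samples, and the unstimulated sample m4 of P4ha2 lies at 5.61 CPM, below its group.

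Among the subunits and sensors, Hif1a, Arnt, Vhl and Hif1an lay within -0.48 to 0.40 in log2 of unstimulated cells, while the transcripts of 2 prolyl hydroxylases were much lower after stimulation. Hif1a, the oxygen-regulated subunit, was 24.2, 28.8, 26.5 and 26.8 CPM unstimulated, 36.3, 30.1, 35.2 and 26.2 CPM in YFP- and 21.1, 25.6, 40.2 and 38.6 CPM in YFP+ samples. The 3 groups overlapped, and among YFP+ samples m3 and m4 were high and f2 and m2 low. Arnt, the stable partner, was 8.73, 7.02, 7.76 and 8.02 CPM unstimulated, 8.65, 11.5, 6.5 and 10.5 CPM in YFP- and 7.68, 9.18, 5.75 and 4.64 CPM in YFP+ samples, again with overlap throughout. Vhl, the substrate receptor of the ubiquitin ligase that removes the alpha subunit, was 9.97, 11.5, 10.8 and 9.90 CPM unstimulated, 6.61, 11.3, 7.28 and 5.99 CPM in YFP- and 5.95, 8.48, 8.26 and 7.84 CPM in YFP+ samples. The YFP+ samples of Vhl lay below every unstimulated sample, whereas the YFP- sample m2 lay within the unstimulated range.

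Egln1, the main oxygen sensor of the family, was 77.0, 88.4, 88.5 and 84.0 CPM in unstimulated, 18.1, 16.8, 16.1 and 14.2 CPM in YFP- and 10.5, 12.4, 13.7 and 17.5 CPM in YFP+ samples. Every stimulated sample was below every unstimulated one, with a difference of -2.38 (SE 0.15) in log2 for YFP- cells, and the stimulated groups overlapped. Egln3 (chr12:54178981-54203860, minus strand), a prolyl hydroxylase that HIF itself induces, was 35.1, 49.4, 40.0 and 34.4 CPM unstimulated, 2.84, 3.47, 4.38 and 2.65 CPM in YFP- and 1.31, 1.35, 1.46 and 2.33 CPM in YFP+ samples. Its 3 groups did not overlap, with -3.58 (SE 0.22) for YFP- and -4.64 (SE 0.22) for YFP+ against unstimulated cells. Egln2, the third enzyme, was 44.1, 33.5, 36.3 and 41.9 CPM unstimulated, 35.8, 34.7, 28.1 and 30.6 CPM in YFP- and 21.2, 30.7, 17.8 and 27.1 CPM in YFP+ samples, so that only the YFP+ samples were all below the unstimulated ones. Hif1an, the asparaginyl hydroxylase that blocks co-activator binding, was 12.2, 13.5, 12.7 and 12.9 CPM unstimulated, 19.9, 19.9, 13 and 15.8 CPM in YFP- and 18.1, 18.1, 11.2 and 11.8 CPM in YFP+ samples. The groups of Hif1an overlapped, and the stimulated samples f2 and m2 were higher than m3 and m4 in both groups.

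Between the 2 stimulated groups none of the 6 tested subunits and sensors passed the threshold, an adjusted p under 0.05 by limma. Egln2 had the smallest adjusted p, 0.0858, with a difference of -0.44 (95% interval -0.81 to -0.07). Hif1a differed by -0.07 (-0.49 to 0.36), Vhl by 0.00 (-0.42 to 0.42) and Egln1 by -0.29 (-0.62 to 0.04). The signs of Hif1a, Vhl and Hif1an turned under other scalings. Egln3, described without a test, was -1.06 (SE 0.22).

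Per kilobase of exon, the makeup of the EGLN family differed between unstimulated and stimulated samples. The 3 enzymes had 23.5 ± 1.51, 13.9 ± 1.75 and 14.9 ± 2.58 CPM per kb (Egln1, Egln2, Egln3; mean ± SD, n = 4) in unstimulated cells. In YFP- cells they had 4.53 ± 0.459, 11.5 ± 1.27 and 1.25 ± 0.292 CPM per kb. In YFP+ cells the levels were 3.77 ± 0.828, 8.64 ± 2.07 and 0.606 ± 0.182 CPM per kb. Egln2 thus made up 21.7% to 31.3% of the summed level in unstimulated samples, 62.1% to 68.9% in those without the YFP signal and 59.2% to 73.5% in those with it, without overlap between unstimulated and stimulated samples. Egln3 took 25.2% to 33.7%, 5.66% to 10.2% and 3.39% to 5.68% in the same order. Among the alpha subunits, Hif1a was at 4.51 ± 0.319 CPM per kb in unstimulated cells against 0.307 ± 0.0499 for Epas1, which encodes HIF-2 alpha.

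**Figure D3:**
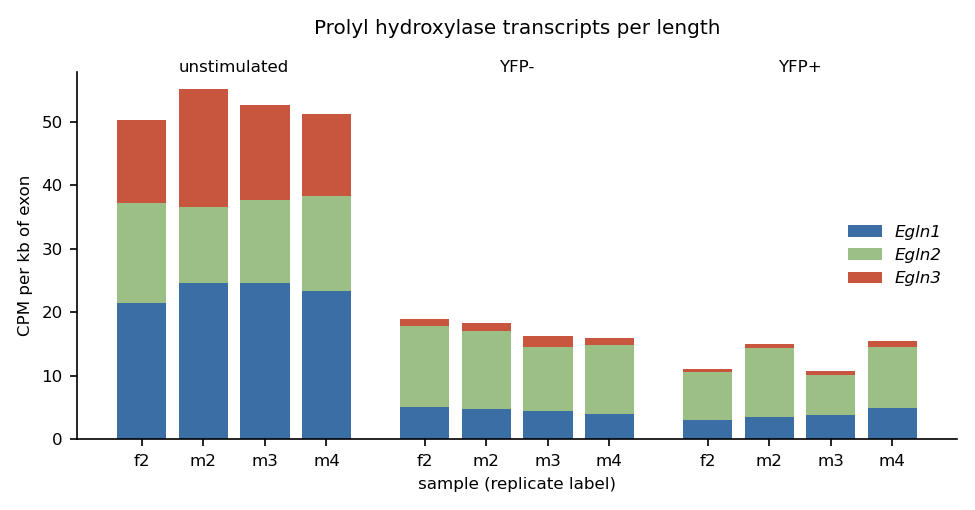
Stacked levels of Egln1, Egln2 and Egln3 in CPM per kilobase of exon, 1 bar a sample. The Egln2 segment is the tallest in all 8 stimulated samples and in none of the unstimulated ones.

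The 5 mitochondrial genes were all lower in every stimulated sample than in any unstimulated one, and 3 of them were lower again in YFP+ cells. Bnip3l (chr14:66985239-67008877, minus strand), which encodes NIX, a mitophagy receptor related to BNIP3, was 284, 309.7, 289 and 293 CPM unstimulated, 88.0, 83.8, 71.0 and 73.7 CPM in YFP- and 32, 35.5, 24.0 and 25 CPM in YFP+ samples. The groups were far apart, and between the stimulated groups Bnip3l fell by 1.45 in log2 (SE 0.14, adjusted p = 1.51e-05, limma), lower in 4 of 4 samples. Ak4, an adenylate kinase of the mitochondrial matrix, was 7.53, 10.2, 8.53 and 5.98 CPM unstimulated, 0.700, 0.851, 0.668 and 0.673 CPM in YFP- and 0.286, 0.277, 0.525 and 0.404 CPM in YFP+ samples. Ak4 passed the filter on low values only through its unstimulated samples, which favoured a fall after stimulation. The YFP+ values of Ak4 rest on 13 to 19 reads a library, and its difference of -0.97 (SE 0.26) from YFP- cells had an adjusted p of 0.0180 in limma. That call was lost under quantile normalization (adjusted p 0.615), in other settings, and without the samples labelled f2 (0.0928), m2 (0.141) or m4 (0.0512).

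Higd1a and Fam162a, small mitochondrial proteins, were lower after stimulation, and their stimulated groups overlapped. Higd1a was 158, 195, 207 and 165 CPM unstimulated, 87.5, 77.3, 88.2 and 97.6 CPM in YFP- and 86.8, 104, 119 and 116 CPM in YFP+ samples. Fam162a was 148, 186, 193 and 152 CPM unstimulated, 53.4, 47.6, 47.8 and 63.7 CPM in YFP- and 45.5, 49.4, 51.5 and 54.0 CPM in YFP+ samples. Neither passed the test between stimulated groups, with 0.27 (95% interval -0.02 to 0.56) for Higd1a and -0.08 (-0.36 to 0.21) for Fam162a. Per kilobase, Bnip3 made up 39.4% to 50.4% of the pair Bnip3 and Bnip3l in unstimulated samples, 16.3% to 22.7% in YFP- samples and 17.6% to 26.2% in YFP+ samples.

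Beside Slc16a3, the transport and lipid group held 1 gene that was lower in both stimulated groups and 2 lipid-droplet genes with smaller differences. Car9, a carbonic anhydrase, was 4.33, 3.84, 4.62 and 2.87 CPM unstimulated, 1.13, 0.527, 1.13 and 0.571 CPM in YFP- and 0.981, 0.645, 1.13 and 0.622 CPM in YFP+ samples, with 20 to 50 reads in each stimulated library. Stimulated samples of Car9 were all below unstimulated ones and overlapped each other. Car9 passed the filter on low values only through its unstimulated samples, which favoured that fall. Plin2, which coats lipid droplets, was 55.4, 59.6, 55.6 and 42.4 CPM unstimulated, 42.6, 41.5, 29.4 and 26.0 CPM in YFP- and 30.5, 26.3, 16.4 and 18.0 CPM in YFP+ samples. The 3 groups stepped down with overlap at each step, and the test between stimulated groups gave -0.63 (SE 0.22, adjusted p = 0.0594, limma), which passed with ribosomal features left out of the totals (0.0168). Hilpda, an inhibitor of triglyceride breakdown, was 67.7, 82.8, 75.2 and 63.0 CPM unstimulated, 60.0, 53.9, 51.0 and 63.5 CPM in YFP- and 45.4, 38.8, 35.0 and 42.2 CPM in YFP+ samples. In YFP+ against YFP- cells Hilpda fell by 0.50 in log2 (SE 0.13, adjusted p = 0.0140, limma), without overlap. This call was lost under quantile, median-centred and trimmed-mean scaling, and without the samples labelled m2 (adjusted p 0.0661) or m4 (0.0745).

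The 3 secreted factors had different courses. Vegfa (chr17:46016993-46032369, minus strand), the main growth factor of blood vessels, was 20.4, 20.8, 22.3 and 25.1 CPM unstimulated, 19.4, 12.8, 15.2 and 15.1 CPM in YFP- and 23.3, 31.0, 35.2 and 49.8 CPM in YFP+ samples. Every YFP- sample was below every unstimulated one, and every YFP+ sample above every YFP- one, with m4 highest. Vegfa rose in YFP+ against YFP- cells by 1.12 in log2 (SE 0.20, 2.17-fold, adjusted p = 0.00169, limma), and was the 1 tested member of 28 called higher. It kept that call in each of the 17 other settings, with values from 0.92 to 1.40. Mif, a cytokine of macrophages and lymphocytes, was 523, 549.6, 589 and 502 CPM unstimulated, 247, 217, 226 and 216 CPM in YFP- and 281, 262, 355 and 245 CPM in YFP+ samples. Stimulated samples of Mif lay below all unstimulated ones, and the difference between stimulated groups, 0.32, did not pass the test (adjusted p = 0.0708, limma), although it passed after centring each sample on its median (0.58, adjusted p 0.0114) and after trimmed-mean scaling (0.48, 0.0155). Mif has near-identical pseudogenes, so its count is uncertain where reads could be split.

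Adm encodes adrenomedullin, a peptide that widens vessels, and was near the limit of these libraries. It was 1.76, 1.1, 1.31 and 0.247 CPM unstimulated, 1.53, 0.446, 0.553 and 1.20 CPM in YFP- and 0.490, 0.0369, 0 and 0.342 CPM in YFP+ samples, with 0 to 24 reads in the YFP+ libraries. The YFP+ samples m2 and m3 were at or under the level of 3 reads, and f2 lay within the YFP- range. The difference between stimulated groups was -3.04 (SE 1.03, adjusted p = 0.0495, limma), a fitted value that depends on the prior count. Adm would not have passed the filter on low values without its YFP- samples, so the filter itself favoured a fall. The call was lost in most other settings, and without the samples labelled f2 (0.0591), m2 (0.160), m3 (0.146) or m4 (0.0712), or without the YFP+ sample m3 alone (0.107).

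Of the 2 genes of growth restraint, Ddit4 encodes REDD1, an inhibitor of mTORC1, and was 54.7, 56.2, 57.6 and 60.8 CPM unstimulated, 21.1, 17.0, 22.1 and 17.4 CPM in YFP- and 13.9, 16.3, 16.7 and 17.3 CPM in YFP+ samples. Stimulated and unstimulated samples of Ddit4 did not overlap, with a difference of -1.57 (SE 0.13) for YFP- cells. Ndrg1, a stress-induced protein, ranged from 44.1 to 58.9 CPM unstimulated, 47.9 to 92.2 CPM in YFP- and 53.8 to 133 CPM in YFP+ samples. Its groups overlapped, the YFP+ samples f2 and m2 were high, and the YFP- sample m2 stood above its group. In the test between stimulated groups Ddit4 gave -0.27 (95% interval -0.54 to 0.01) and Ndrg1 0.48 (-0.11 to 1.07), neither past the threshold.

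The 5 demethylases and hydroxylases use oxygen as a substrate, as the EGLN enzymes do, and 4 of them were lower in all stimulated than in all unstimulated samples. Kdm3a, a histone H3K9 demethylase, was 15.6, 16.7, 18.1 and 18.7 CPM unstimulated, 13.8, 11.0, 8.92 and 10.4 CPM in YFP- and 7.13, 9.97, 7.13 and 7.81 CPM in YFP+ samples. Kdm4b, another demethylase of that mark, was 19.8, 21.2, 21.7 and 26.0 CPM unstimulated, 9.44, 9.81, 7.49 and 7.99 CPM in YFP- and 5.87, 8.00, 7.98 and 9.02 CPM in YFP+ samples. P4ha1, a catalytic subunit of collagen prolyl hydroxylase, was 44.5, 47.9, 42.2 and 51.4 CPM unstimulated, 16.5, 31.3, 16.5 and 18.3 CPM in YFP- and 25.5, 21.3, 16.9 and 16.3 CPM in YFP+ samples. The stimulated groups overlapped in all 3 genes, and for P4ha1 the YFP- sample m2 stood above its group. Jmjd6, a lysyl hydroxylase acting on splicing factors, ranged from 49.7 to 62.6 CPM unstimulated, 33.6 to 45.6 CPM in YFP- and 28.8 to 46.0 CPM in YFP+ samples. P4ha2, the sister subunit of P4ha1, ranged from 5.61 to 22.9 CPM unstimulated, 12.9 to 18.3 CPM in YFP- and 3.95 to 16 CPM in YFP+ samples. The low unstimulated value belongs to m4 and the low YFP+ values to m3 and m4, the same libraries that were low in Slc16a3. None of the 5 passed the test between stimulated groups, and Kdm3a had the smallest adjusted p, 0.0621, at -0.46 (95% interval -0.81 to -0.10).

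The nuclear proteins held Rora, Narf and Zfp395, the tested members with the largest differences between the 2 stimulated groups after that of Adm. Narf (chr11:121237253-121255856, plus strand), a nuclear protein that binds prelamin A, was 18.8, 16, 17.5 and 24.5 CPM unstimulated, 2.75, 2.45, 2.42 and 1.24 CPM in YFP- and 0.613, 0.295, 0.635 and 0.684 CPM in YFP+ samples. Its groups were apart at both steps, with 16 to 30 reads a library in YFP+ cells. Between the stimulated groups Narf fell by 1.98 in log2 (SE 0.30, adjusted p = 0.000498, limma). Zfp395 (chr14:65358389-65398930, plus strand), a zinc-finger protein, was 49.8, 53.2, 57.0 and 56.6 CPM unstimulated, 7.99, 5.15, 5.53 and 4.28 CPM in YFP- and 1.72, 1.70, 1.27 and 1.99 CPM in YFP+ samples. No Zfp395 group came near another, and between the stimulated groups it fell by 1.75 (SE 0.19, adjusted p = 5.03e-05, limma).

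Rora (chr9:68653786-69388246, plus strand), the gene of the nuclear receptor ROR alpha, was 6.87, 11.3, 9.09 and 15.6 CPM unstimulated, 23.9, 24.2, 14.3 and 28.6 CPM in YFP- and 4.52, 2.71, 1.52 and 3.27 CPM in YFP+ samples. The YFP- samples f2, m2 and m4 were above the unstimulated range, and every YFP+ sample was below both other groups. Rora fell by 2.98 in log2 in YFP+ against YFP- cells (SE 0.33, 7.87-fold, adjusted p = 5.32e-05, limma), the largest difference among tested members other than Adm. Bhlhe40, a transcriptional repressor that also acts in the circadian clock, was 141, 150.1, 139.5 and 149 CPM unstimulated, 210.2, 241, 149.8 and 163 CPM in YFP- and 135, 122, 111 and 110.1 CPM in YFP+ samples. All YFP+ samples were the lowest, and it fell by 0.66 against YFP- cells (SE 0.14, adjusted p = 0.00534, limma). Rbpj, the DNA-binding partner of Notch, was 35.0, 33.9, 35.0 and 36.3 CPM unstimulated, 136, 121, 106 and 145 CPM in YFP- and 133, 137, 145 and 159.9 CPM in YFP+ samples. It was the 1 member higher in all stimulated than in all unstimulated samples, by 1.85 (SE 0.12) in YFP- and 2.03 (SE 0.12) in YFP+ cells, and the stimulated groups overlapped.

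**Figure D4:**
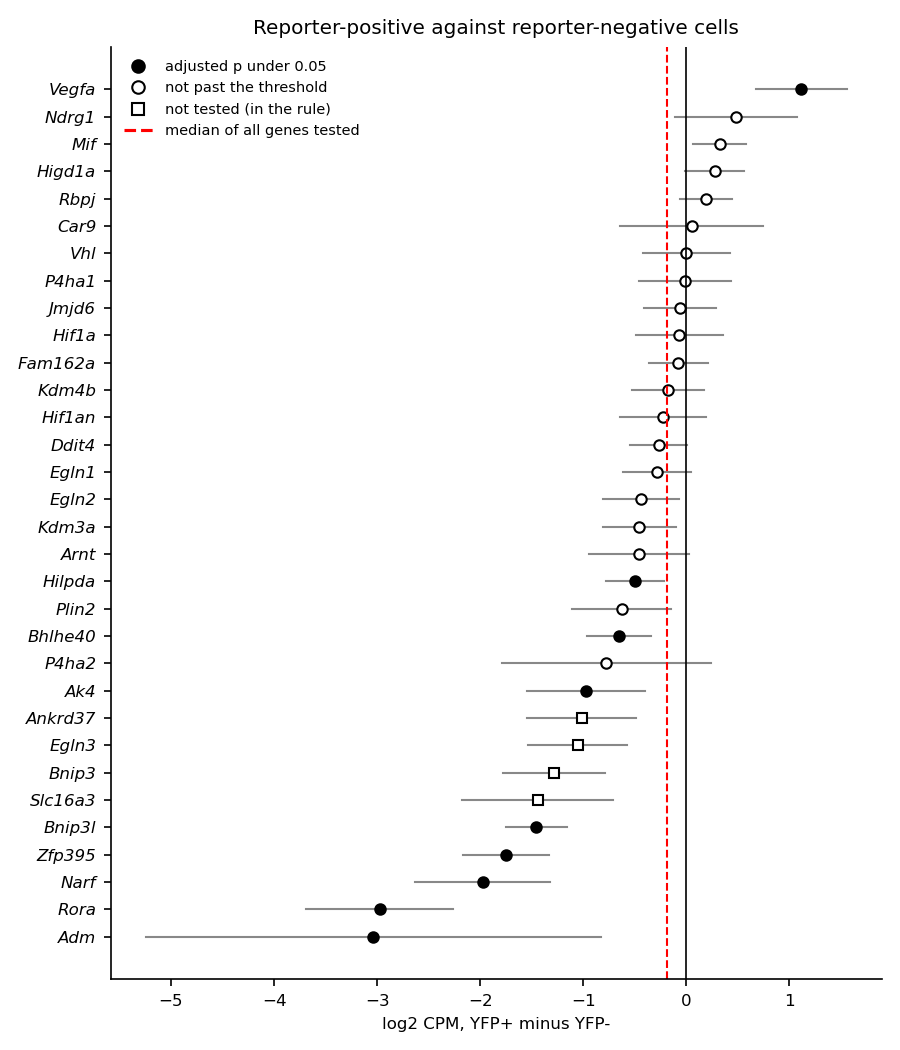
Difference in log2 CPM between YFP+ and YFP- cells for the 32 genes, with 95% intervals from the limma fit (4 samples a group). Filled points passed the threshold, squares mark the 4 genes that chose the list and were not tested, and the dashed line at -0.19 is the median of all tested genes.

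Counting the tested comparison, 8 of 28 members fell in YFP+ against YFP- cells and 1 rose. By limma 21.8% of all tested genes were called, 18.5% lower and 3.28% higher (2286 and 405 genes), so 8 of 28, or 28.6%, stood beside 18.5%. With Adm left out, for the reason given above, 7 of 27 fell. The median difference was -0.28 for the 28 members and -0.19 for all tested genes, and 22 of 28 against 66.9% of all genes were below 0. Of all genes called, 15.1% were higher on the deposited scale, 44.9% after quantile normalization, 50.2% after centring each sample on its median and 37.7% after trimmed-mean scaling. Under the same 3 scalings 5, 5 and 6 members were called lower and 1, 5 and 4 higher. Of the 12364 tested genes 1430, 1491 and 1675 were called lower there and 1163, 1505 and 1015 higher. Higd1a, Mif and Rbpj joined Vegfa after centring and trimmed-mean scaling, and Ndrg1 after centring alone. Without the samples labelled m2, or without those labelled m4, 5 members were called lower, beside 1420 and 1445 of all tested genes. Bnip3l, Narf, Zfp395, Rora, Bhlhe40 and Vegfa kept their calls in all 17 other settings. For the 4 genes of the rule the same difference, without a test, was -1.01 (SE 0.25) for Ankrd37, -1.28 (SE 0.23) for Bnip3, -1.06 (SE 0.22) for Egln3 and -1.44 (SE 0.34) for Slc16a3.

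By the overlap of the 4 samples a group, the 32 members followed few courses over the 3 groups. Egln3, Bnip3, Bnip3l, Ak4, Slc16a3, Ankrd37, Narf and Zfp395, 8 genes, were lower at both steps, as were 8.46% of all tested genes. For 10 members (Egln1, Higd1a, Fam162a, Car9, Mif, Ddit4, Kdm3a, Kdm4b, Jmjd6 and P4ha1) YFP- samples were below unstimulated ones and overlapped YFP+ samples, a course of 13.0% of all tested genes. In Hilpda, Rora and Bhlhe40 the YFP- samples overlapped the unstimulated ones and the YFP+ samples lay below both other groups. YFP- samples that overlapped unstimulated ones and lay above all YFP+ samples were found for 6.99% of all tested genes. At both steps 9 members and 39.2% of all tested genes overlapped, and Vegfa and Rbpj had courses of their own. Nothing is read from these shares either, since the first step is the one the list was built on and the filter favoured the first fall of Ak4 and Car9. Between the stimulated groups 11 of 32 members were lower without overlap and 1 higher, with 17.8% and 4.31% of all tested genes. The 11 include Egln3, Bnip3, Slc16a3 and Ankrd37, the genes of the rule, which were chosen for falls in these stimulated samples. Nothing is read from that count.

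The other genes of the pathway were taken from 3 lists that hold none of the members. Like the members, these lists were chosen with earlier results of these data known, so their counts are no independent support. Of 24 glycolytic HIF targets 23 passed the filter on low values, and 17 fell and 0 rose in YFP- against unstimulated cells (limma, adjusted p under 0.05), where 20.9% of all tested genes fell and 30.2% rose. Of all genes called there, 59.1% were higher on the deposited scale, 49.3% after quantile normalization, 49.9% after centring and 47.1% with ribosomal features left out of the totals. Under each of those 3 scalings 18 glycolytic genes fell and 0 rose, where 3410, 3291 and 3444 of the 12364 tested genes fell. Pdk1, the kinase that keeps pyruvate out of the mitochondrion, was 43.1 to 46.6 CPM unstimulated and 3.73 to 7.17 CPM in YFP- samples (-2.96, SE 0.21, adjusted p = 2.40e-07). Tpi1, Eno1 and Aldoa, enzymes of glycolysis, fell by 2.56, 2.07 and 1.70 in log2, with adjusted p of 1.29e-08, 1.12e-06 and 1.33e-07. Tpi1, Eno1 and Aldoa have near-identical pseudogenes, so their counts are uncertain where reads could be split. The list's median was -1.40 beside 0.14 for all tested genes. In YFP+ against unstimulated cells 16 of the 23 fell and 0 rose, with 33.3% and 27.5% of all genes.

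Between the stimulated groups 5 of the 23 glycolytic genes fell and 2 rose, 21.7% and 8.70% beside 18.5% and 3.28% of all tested genes. The number that fell was 1 after centring, 2 after trimmed-mean scaling, 11 with ribosomal features left out of the totals and 1 without the samples labelled m2. In the same order 1491, 1675, 2682 and 1420 of the 12364 tested genes fell, beside 2286 on the deposited scale. Gpi1, glucose phosphate isomerase, was 384 to 533 CPM in YFP- and 175 to 339 CPM in YFP+ samples and fell by 0.80 (SE 0.18, adjusted p = 0.00726). Hk1, a hexokinase, and Gbe1, which branches glycogen, fell by 0.66 and 0.75 (adjusted p = 0.0163 and 0.0175). Gys1, glycogen synthase, rose by 0.86 (adjusted p = 0.00806). Gpi1 kept its call in all 17 other settings, while those of Hk1 and Gbe1 were lost without the samples labelled m2 (adjusted p 0.0769 and 0.111) or m4 (0.0549 and 0.0748), and that of Gys1 without m4 (0.0757). The calls of Hk1 and Gbe1 were also lost after centring (Hk1 -0.40, adjusted p 0.0541; Gbe1 -0.49, 0.0685), Gbe1 after quantile normalization (-0.42, 0.124) and Hk1 after trimmed-mean scaling (0.0521). The list's median, -0.48, stood beside -0.19 for all tested genes. Some glycolytic genes were uneven among YFP+ samples f2, m2, m3 and m4, such as Slc2a1 (85.9, 71.7, 21.0 and 20.0 CPM) and Pfkp (383, 299, 86.2 and 84.2 CPM). Hk2 was not (21.6, 24.6, 27.1 and 26.9 CPM). Over all tested genes YFP+ samples correlated at 0.938 to 0.982, unstimulated ones at 0.974 to 0.985 and YFP- ones at 0.980 to 0.983. The part of this unevenness in the median was not tested.

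Of 16 other parts of the HIF machinery 14 passed the filter. Epas1 passed only through its unstimulated samples and Arnt2 only through its YFP- samples. The filter thus favoured a difference in both, and they are left out of the counts that compare those groups. In YFP- against unstimulated cells 4 of the other 12 fell and 3 rose, with 20.9% and 30.2% of all tested genes. Cited2, which competes with the HIF alpha subunit for co-activators, was 21.8 to 32.3 CPM unstimulated and 9.91 to 11.9 CPM in YFP- samples (-1.22, adjusted p = 0.000189). Cul2, the scaffold of the VHL ligase, and Eloc, its elongin C, rose by 0.89 and 0.55 (adjusted p = 0.000227 and 0.00173). Siah2, a ligase that degrades prolyl hydroxylases, rose by 0.66 (adjusted p = 0.0156) and by 0.65 again in YFP+ against YFP- cells (adjusted p = 0.0360). In that second comparison 4 of 13 fell and 1 rose, with 18.5% and 3.28% of all tested genes, and among those that fell were the co-activators Crebbp by 0.58 (adjusted p = 0.00905) and Ep300 by 0.50 (adjusted p = 0.0416), and the deubiquitinase Usp20 by 0.78 (adjusted p = 0.0291). The calls of Ep300, Usp20 and Siah2 between the stimulated groups were lost without the samples labelled m2 (adjusted p 0.136, 0.165 and 0.143) or m4 (0.103, 0.152 and 0.174). Ep300 and Crebbp lost theirs without f2 (0.226 and 0.0594), Siah2 without m3 (0.106) and Crebbp without m2 (0.0944), and the rise of Siah2 in YFP- cells was lost without m4 (0.0849) or without the unstimulated m4 alone (0.0503). Under quantile normalization the falls of Crebbp (-0.39, adjusted p 0.0595), Ep300 (-0.26, 0.345) and Usp20 (-0.43, 0.161) were lost, and so they were after centring (0.0938, 0.380 and 0.0800). Trimmed-mean scaling ended the calls of Ep300 (0.109) and Usp20 (0.0699), and leaving ribosomal features out of the totals those of Ep300 (0.0639) and Siah2 (0.0642). The rise of Siah2 in YFP- cells was lost after centring (0.0863), after quantile normalization (0.0528) and without ribosomal features (0.109), and that of Eloc after quantile normalization (0.32, 0.0682).

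Of 36 other HIF targets 30 passed the filter, and they moved in both directions. Tet1 passed only through its unstimulated and Vldlr only through its YFP+ samples, and each is left out where that group is compared. In YFP- against unstimulated cells 12 of 29 fell and 11 rose, with 20.9% and 30.2% of all tested genes. In YFP+ against YFP- cells 6 of 29 fell and 5 rose, with 18.5% and 3.28%. Hmox1, heme oxygenase, was 5.83 to 10.6 CPM unstimulated, 115 to 152 CPM in YFP- and 189 to 309 CPM in YFP+ samples, a rise of 4.19 (SE 0.20, adjusted p = 7.90e-09) and then of 0.84 (SE 0.20, adjusted p = 0.00897). Kdm6b, a histone H3K27 demethylase, rose by 2.5 in YFP- cells (adjusted p = 4.22e-07). Prelid2 fell by 2.14 in YFP- cells (adjusted p = 2.79e-07). Tfrc, the transferrin receptor, rose by 0.91 between the stimulated groups (adjusted p = 0.000582). Ccng2, a cyclin of resting cells, and Cdkn1b, the cell cycle inhibitor p27, fell there by 1.49 and 0.95 (adjusted p = 0.000936 and 0.00596). Dusp1, a MAP kinase phosphatase, fell by 1.48 between the stimulated groups (adjusted p = 0.00685). Stc2, a secreted glycoprotein, rose by 2.27 in YFP- against unstimulated cells (SE 0.29, adjusted p = 3.01e-05) and by 0.93 between the stimulated groups (adjusted p = 0.0354). Tfrc and Ccng2 kept these calls in all 17 other settings. Without the samples labelled f2 the calls of Hmox1 (adjusted p 0.0516), Cdkn1b (0.0509) and Stc2 (0.0879) between the stimulated groups were lost, as were those of Hmox1 (0.0522) and Stc2 (0.145) without m2, Stc2 without m3 (0.0887) or the YFP+ sample m4 alone (0.0786) and Dusp1 without m4 (0.0509). Over the 3 lists 16 genes fell and 9 rose between the stimulated groups, beside 2286 and 405 of 12364 tested genes. These totals include Arnt2 and Vldlr, whose fall and rise the filter favoured. They were 5 and 4 without the samples labelled m2 (1420 and 151 of all tested genes) and 9 and 4 without m4 (1445 and 198). Without f2 they were 9 and 6 (1593 and 388), and without m3 15 and 4 (1933 and 245).

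**Figure D5:**
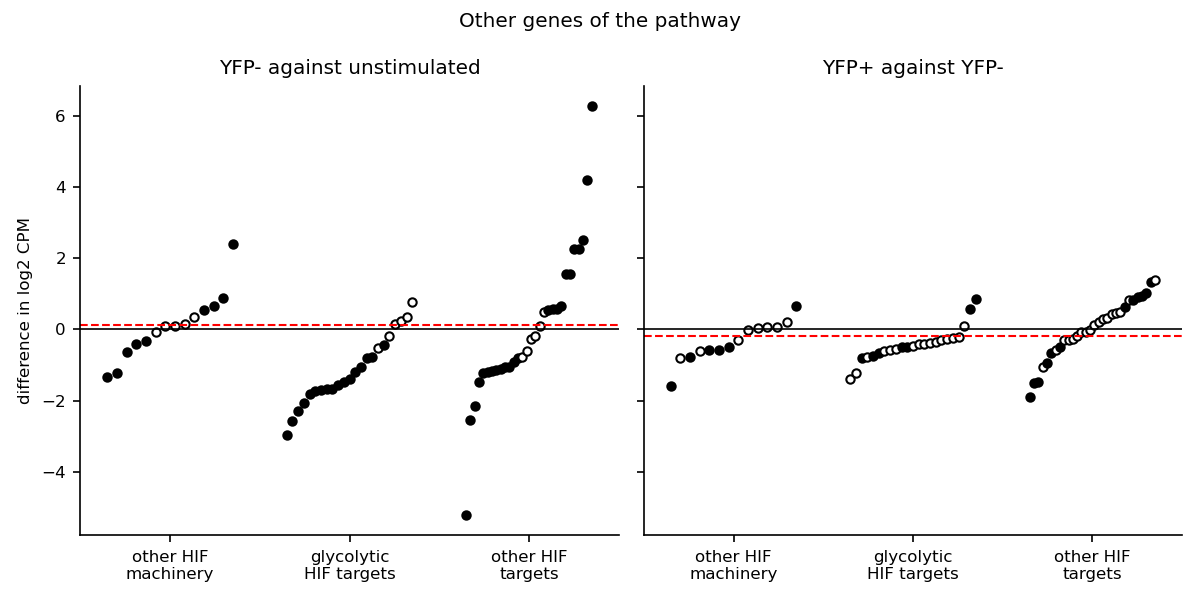
Difference in log2 CPM of each gene of the 3 pathway lists that passed the filter, ordered within its list, for YFP- against unstimulated (left) and YFP+ against YFP- (right). Filled points had an adjusted p under 0.05 by limma, the dashed line is the median of all tested genes, and 17 of 23 glycolytic genes are filled and below 0 on the left.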

How the data were processed

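RNA of 12 NK cell samples was sequenced from SMARTer Ultra Low cDNA libraries, per the labels' protocols. The submitters' processing notes name bcl2fastq, STAR 2.7.9a, Subread, featureCounts 2.0.3 and GRCm38. The annotation, the strand setting and the tool that made the table are not given in the sources used here, so reads of a gene and an antisense or overlapping neighbour cannot be told apart. The authors deposited a table of log2 CPM with a prior of 0.5 reads, scaled to library size. Of 55774 lines 287 were repeats and were dropped, and whole reads (within 0.001) followed from 100% of values. CPM in the text were computed from those reads and the library totals. Coordinates are GRCm38 gene spans of GENCODE M21, whose merged exons gave lengths.

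Values were tested on the deposited log2 scale with limma 3.58.1 (R 4.3.3; lmFit, contrasts, eBayes with trend) over all 12 samples, 1 coefficient a group and no block, for 12364 genes with log2 CPM above 0 in at least 4 samples. P-values were adjusted by Benjamini-Hochberg over those genes and called under 0.05; the fit was tested on simulated data. Fold changes are on that scale and understate changes of low genes. The level of 3 reads covers counting error only. The members and lists were chosen with earlier results of these data known. Named with values in every sample were the 4 genes of the rule, the subunits and sensors, and members called in YFP+ against YFP- cells or differing by at least 1 in log2 between any 2 groups. From each pathway list up to 4 genes with the smallest adjusted p (mean log2 CPM at least 2) were named in each of 2 comparisons. Settings tried were 14 planned and 3 added after seeing the data, covering filters, a pseudocount of 1 CPM, scalings, a replicate block and left-out samples.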

Additional observations from a re-analysis of the deposited data

Results flagged for a closer look

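In 7 of the 96 sets of 4 replicate values (32 genes in 3 groups) a single sample stood far from the other 3, judged by its gap to the nearest sample as a share of the range of the set and called by Dixon's critical value for 4 samples. Chance alone gives about 1 in 20 such sets, or 4.8 of 96. In the unstimulated sample m4, Slc16a3 was 210.4 CPM beside 362 to 383 CPM (gap share 0.908) and P4ha2 was 5.61 CPM beside 20.0 to 22.9 CPM (0.904). In the YFP- sample m2, Ndrg1 was 92.2 CPM beside 47.9 to 52.5 CPM (0.859) and P4ha1 was 31.3 CPM beside 16.5 to 18.3 CPM (0.837). Bnip3 was 3.01 CPM in the YFP+ sample m3 beside 5.20 to 5.60 CPM (0.878). Narf was 1.24 CPM in the YFP- sample m4 beside 2.42 to 2.75 CPM (0.837), and 0.295 CPM in the YFP+ sample m2 beside 0.613 to 0.684 CPM (0.868).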

How the results depend on the processing

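Between YFP+ and YFP- cells, 11 of the 28 tested members kept direction and side of the threshold in every setting they could be given for. Ak4, Hilpda and Adm lost their calls in some settings, and Higd1a, Mif, Ndrg1, Rbpj, Plin2 and Kdm3a, not called on the deposited scale, passed in some. With a replicate block 2 members (Vegfa and Mif, adjusted p 0.0432, limma) were called higher and Plin2 was called lower (0.00862). The block called 25 pathway genes lower, 12 of them glycolytic, beside 2652 of all tested genes, and 446 of all tested genes higher. Without YFP+ replicate m4 alone 2 members were called higher, beside 262 of all tested genes. The labels do not state that equal replicate labels pair samples, so the main fit had no block. Same-label deviations correlated at -0.06 to 0.10 (YFP- and unstimulated), -0.04 to 0.38 (YFP+ and unstimulated) and 0.05 to 0.37 (YFP+ and YFP-). In that order 1, 2 and 3 of 4 samples correlated best with their own label. All same-label values of YFP+ and YFP- were positive, so these correlations do not exclude a pairing of the 2 stimulated groups. Pathway genes called lower numbered 8 in a fit of only the 8 samples compared, 10 with no filter, 8 after quantile normalization, 6 after centring on the median and 9 after trimmed-mean scaling. All genes called lower in those settings numbered 1645, 1999, 1430, 1491 and 1675. After centring 15 pathway genes were called higher, beside 1505 of all tested genes. Members called lower numbered 5 after quantile normalization and 5 after centring, and those called higher 5 after centring and 4 after trimmed-mean scaling. Leaving out samples gave 1571 to 2603 genes called, 5 to 8 members lower, 5 to 16 pathway genes lower and 4 to 9 higher. Values that changed sign, none past the threshold, were after quantile normalization Hif1a 0.14, Vhl 0.30, Hif1an 0.014, Fam162a 0.084, Kdm4b 0.13, Jmjd6 0.11, P4ha1 0.20 and Cul2 0.20. After centring they were Hif1a 0.19, Vhl 0.26, Hif1an 0.035, Fam162a 0.18, Kdm4b 0.084, Jmjd6 0.20, P4ha1 0.25, Cul2 0.24 and Aldoa 0.013, and after trimmed-mean scaling Hif1a 0.086, Vhl 0.15, Fam162a 0.076, Jmjd6 0.088, P4ha1 0.14 and Cul2 0.13. With samples left out, Hif1a ranged from -0.28 to 0.17, Vhl from -0.13 to 0.14, Jmjd6 from -0.094 to 0.080, P4ha1 from -0.23 to 0.17, Cul2 from -0.062 to 0.053 and Car9 from -0.10 to 0.18, and Crebbp ranged from -0.21 to 0.042 in YFP- against unstimulated cells. The cause was not tested. Low read counts of the genes themselves limit Adm, Ak4, Narf and Car9.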
